A study of Homo sapiens with 42 samples.

Results

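The Outside viewpoint, a fixed point on chromosome 9 that the labels place beyond a fountain-like contact structure, was compared between mid S phase and G1. The comparison used 8 of the 42 libraries of the study, the 6 Outside libraries of fractions S3, S4 and S5 and the 2 Outside libraries of G1, chosen by primer and cell-cycle label alone. The cells were K562, an established chronic myeloid leukaemia line, and every group carried the same FUCCI cell-cycle reporter knocked in at the AAVS1 locus. Asynchronous cells were stained with Hoechst33342, a dye of DNA content, at 10 uM for 45 min, sorted into G1 and 6 S-phase fractions, and fixed with 1% PFA. No group had another drug or genetic change. Chromatin was cut with DpnII and ligated in place, so that DNA lying close in the nucleus was joined, and the partners of each viewpoint were read by extending a biotinylated primer. The labels do not say whether the 2 libraries of a fraction are separate cultures or sorts, and p-values therefore cover only the spread seen among these libraries, part or all of which can be technical. The fractions were gates on bulk cells, so a contact made in more cells and a contact made more often per cell cannot be told apart.

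A fountain is a contact pattern that spreads out from a narrow base in contact maps, as sites on both sides of the base meet each other. Contact domains and loops are shaped by cohesin, which extrudes loops and is stopped by CTCF, and during S phase the fibre is also opened and copied by replication forks. A primer beyond such a structure reports which of its own neighbours and which sites within and past the structure it meets. Genes known in this part of the long arm include KLF4, a zinc-finger transcription factor, and RAD23B, a DNA repair factor. An hg19 annotation was not used here, so windows are given by position and carry no gene names.

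In hg19 coordinates, the position listed most often put the Outside viewpoint at chromosome 9 position 111110106, the Distal viewpoint at 111525048 and the Proximal viewpoint at 111624875. The Distal and Proximal viewpoints, both placed within the fountain by the labels, lay 414.9 and 514.8 kb from Outside on the side of higher coordinates. Each deposited line gave 1 position and is called a contact here. All 8 libraries held 16350 contacts, an equal number, so that a fall in one class must be met by a rise in another and the sequencing depth is unknown. Between 46.6% and 59.7% of a library's contacts repeated a position already listed, and 87.0% to 90.8% lay on chromosome 9. Repeats made up 49.4 and 46.6% in G1. In S3, S4 and S5 they made up 59.7, 58.4 and 58.9% in replicate 1 and 50.9, 52.4 and 49.3% in replicate 2. The 2 libraries of a fraction differed by more than counting noise in every fraction, with a chi-square per degree of freedom of 1.38 to 2.86.

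In mid S phase a larger share of Outside contacts lay near the viewpoint than in G1. The zone over 20 kb and within 2 Mb of the viewpoint, called local here, held 53.2% ± 0.22 of contacts in G1 (SD, n = 2) and 64.7% ± 0.50 in S3 to S5 (SD, n = 6). In numbers these were 8672 and 8723 contacts in G1 and 10454 to 10665 in the mid S libraries. The rise was not particular to mid S. The local zone held 58.8 and 59.7% in S1, 62.1 and 62.3% in S2 and 63.8 and 61.1% in S6. Chromosome 9 beyond 2 Mb and other chromosomes gave up most of that share. Contacts within 20 kb also fell in the mean, from 16.01% to 14.9%, a change that did not pass the test given below. Results are therefore given in both scalings. Shares of the whole library show how a fixed total of contacts was divided, not whether their absolute number rose or fell. Shares of the local contacts show how the profile within 2 Mb was reshaped.

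**Figure D1:**
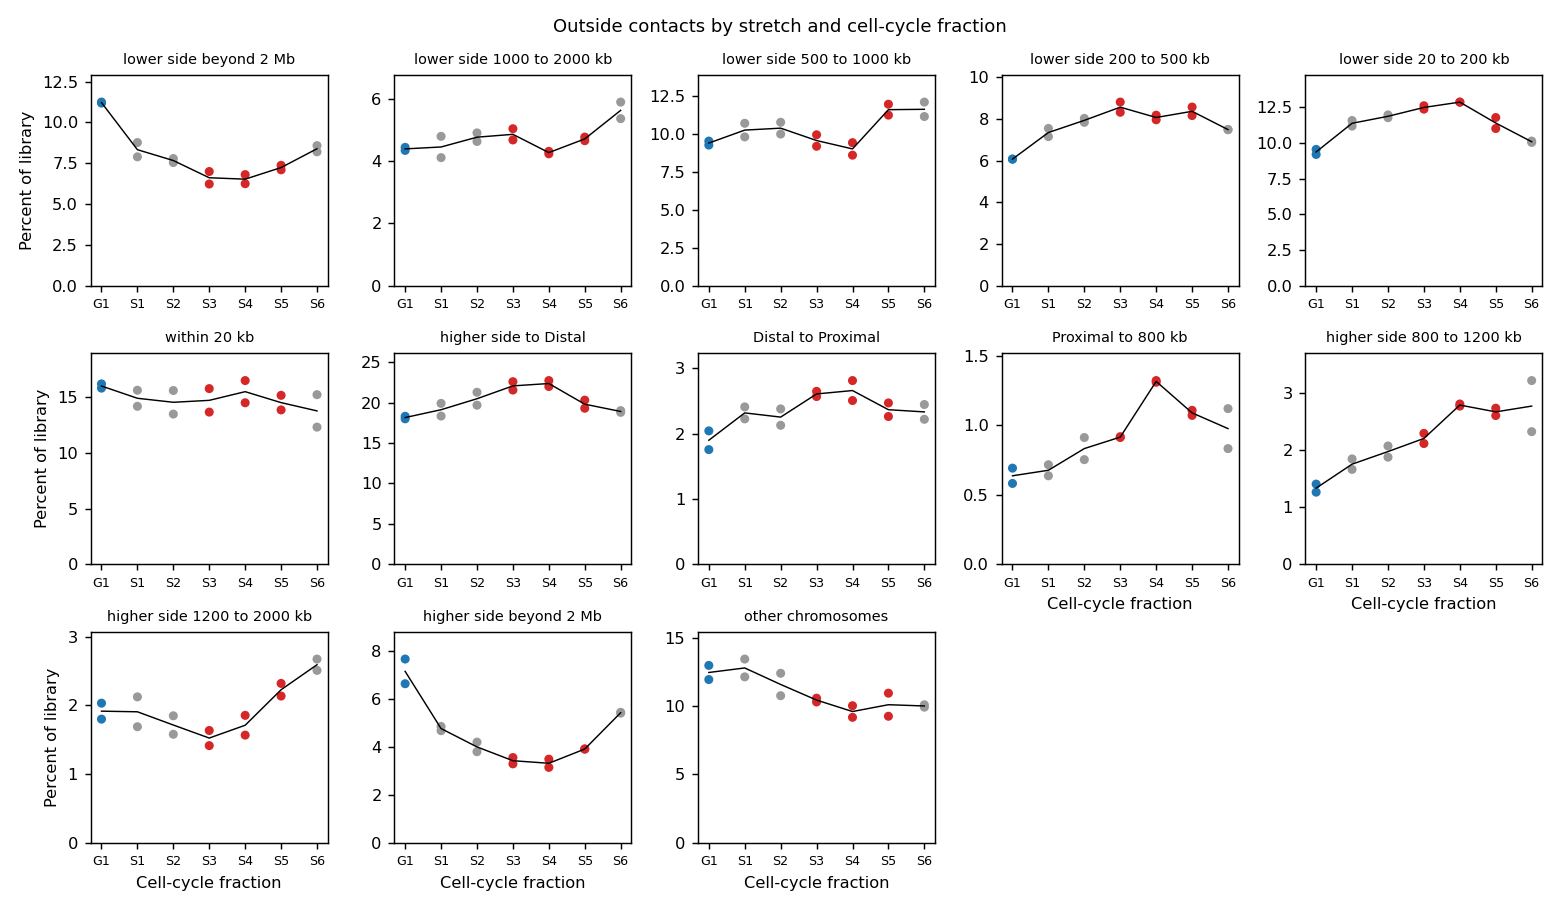
Percent of a library's contacts (y axis, from 0) in 13 stretches around the Outside viewpoint by cell-cycle fraction (x axis), with 1 point per library, G1 in blue, S3 to S5 in red, other fractions in grey and a line through the fraction means. The stretch from 800 to 1200 kb on the higher side stands at 1.26 and 1.40% in G1 and between 2.11 and 2.80% in S3 to S5.

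Of 13 stretches that divide the whole library by distance and side, 9 (69.2%) passed limma's test of S3 to S5 against G1, with 6 (46.2%) higher and 3 (23.1%) lower. The 3 that fell were the far ones. Chromosome 9 beyond 2 Mb on the higher side went from 7.14% ± 0.73 in G1 (SD, n = 2) to 3.54% ± 0.31 in S3 to S5 (SD, n = 6), a log2 change of -1.01 (SE 0.068, adjusted p = 2.03e-07). The lower side beyond 2 Mb went from 11.2% ± 0.043 to 6.79% ± 0.47, a log2 change of -0.73 (SE 0.062, adjusted p = 1.13e-06). In both of these stretches every mid S library lay below both G1 libraries. Means below G1 were also seen outside mid S, with 4.76% in S1 and 5.42% in S6 on the higher side. On the lower side they were 8.33% in S1 and 8.39% in S6. Other chromosomes fell less, from 12.4% ± 0.73 to 10.0% ± 0.71 (log2 -0.31, adjusted p = 0.00346), and this call was lost without G1 replicate 2 (adjusted p = 0.0566).

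On the higher side, the side of the fountain, the size of the gain grew with distance up to 1200 kb. From 20 kb to just before the Distal viewpoint the G1 libraries held 17.99 and 18.31% of contacts and the mid S libraries 19.3 to 22.7% with a median of 21.8%, a fold of 1.18 (log2 0.24, SE 0.052, adjusted p = 0.0015). The stretch that spans the Distal and Proximal viewpoints, from 394.9 to 534.8 kb, held 1.76 and 2.04% in G1 and 2.26 to 2.81% in mid S, a fold of 1.34 (log2 0.42, SE 0.079, adjusted p = 0.00044). Past the Proximal viewpoint the G1 and mid S libraries stood further apart. From there to 800 kb, 0.691 and 0.581% in G1 stood against 0.911 to 1.32% in mid S, with a median of 1.09% and a fold of 1.74 (log2 0.79, SE 0.11, adjusted p = 4.94e-05). From 800 to 1200 kb, 1.40 and 1.26% stood against 2.11 to 2.80%, with a median of 2.66% and a fold of 1.92 (log2 0.93, SE 0.10, adjusted p = 8.55e-06). No pair of these groups overlapped in the 4 stretches. Whether the folds of the stretches differ from one another was not tested. The gain from 800 to 1200 kb was not particular to mid S. Means there were 1.33% in G1, 1.75% in S1, 1.97% in S2, 2.55% in S3 to S5 and 2.76% in S6 (3.21 and 2.32%). Beyond 1200 kb the fractions S3, S4 and S5 did not move alike. The stretch to 2000 kb held 2.03 and 1.80% in G1, with means of 1.52% in S3, 1.71% in S4 and 2.23% in S5, and both S5 libraries (2.32 and 2.13%) lay above both G1 libraries. Over the 6 mid S libraries together the change did not pass (log2 -0.09, 95% confidence interval -0.33 to 0.14, adjusted p = 0.402).

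On the lower side, which points away from both fountain primers, the gain was near the viewpoint. From 20 to 200 kb the G1 libraries held 9.20 and 9.55% of contacts and the mid S libraries 11.02 to 12.87%, with a median of 12.5% and a fold of 1.31 (log2 0.38, SE 0.045, adjusted p = 1.02e-05). From 200 to 500 kb the G1 libraries held 6.07 and 6.08% and the mid S libraries 7.96 to 8.81%, with a fold of 1.37 (log2 0.46, SE 0.046, adjusted p = 4.34e-06). Groups did not overlap in either stretch. From 500 to 1000 kb, 9.42% ± 0.19 in G1 and 10.1% ± 1.3 in mid S gave a log2 change of 0.09 (adjusted p = 0.248), although both S5 libraries (11.98 and 11.26%) lay above both G1 libraries (9.55 and 9.28%). From 1000 to 2000 kb, 4.40% ± 0.069 and 4.62% ± 0.30 gave a log2 change of 0.07 (adjusted p = 0.34). Contacts within 20 kb held 16.01% ± 0.27 and 14.9% ± 1.1, a log2 change of -0.11 that did not pass (adjusted p = 0.34).

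The 9 calls rest on limma's pooled spread. An exact two-sided permutation test of 6 against 2 libraries gave each of them p = 0.0357, the smallest that 28 splits allow, and 0.0516 after adjustment, so that none passed.

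Among the 9 local stretches read as shares of the local contacts, 7 (77.8%) passed, 4 (44.4%) higher and 3 (33.3%) lower. The gains past the Proximal viewpoint remained in this scaling. The stretch from there to 800 kb went from 1.196% ± 0.15 to 1.71% ± 0.27 of local contacts (log2 0.50, adjusted p = 0.00307), and that from 800 to 1200 kb from 2.50% ± 0.20 to 3.94% ± 0.44 (log2 0.65, adjusted p = 0.000446). Their exact two-sided permutation tests gave p = 0.0714 and 0.0357. The lower stretch from 1000 to 2000 kb fell by 0.21 on the log2 scale (adjusted p = 0.0109), with all 6 mid S libraries (6.50 to 7.74%) below both G1 libraries (8.20 and 8.33%). Its exact permutation test gave p = 0.0714. The calls of 2 further stretches were lower in the mean of the 3 fractions, while the S5 libraries overlapped those of G1. From 1200 to 2000 kb on the higher side the log2 change was -0.38 (adjusted p = 0.00993), with 3.83 and 3.37% in G1, means of 2.35% in S3 and 2.63% in S4, and 3.63 and 3.31% in S5. From 500 to 1000 kb on the lower side it was -0.19 (adjusted p = 0.0127), with 17.7% ± 0.42 in G1, means of 14.8% in S3 and 13.9% in S4, and 18.74 and 17.44% in S5. The groups overlapped in both of these, and exact two-sided permutation tests gave p = 0.143 and 0.321. On the near lower side, log2 changes were 0.17 from 200 to 500 kb (adjusted p = 0.00611) and 0.10 from 20 to 200 kb (adjusted p = 0.0428). Exact two-sided permutation tests gave p = 0.0357 and 0.214. From 20 to 200 kb the groups overlapped, with 17.34 and 17.91% in G1 and 17.23 and 18.25% in S5. The higher side up to the Distal viewpoint held 34.1% in G1 and 33.1% ± 2.0 in mid S (log2 -0.05, adjusted p = 0.364), and the stretch from Distal to Proximal had a log2 change of 0.14 (adjusted p = 0.0981). Without G1 replicate 1 the number of calls was 2 in place of 7, both of them the gains past the Proximal viewpoint. Without G1 replicate 2 the lower stretch from 1000 to 2000 kb lost its call (adjusted p = 0.0565) and the stretch from Distal to Proximal gained one (adjusted p = 0.0398). The lower stretch from 20 to 200 kb also lost its call without G1 replicate 2, either S2 library, S3 replicate 2, either S4 library or S5 replicate 2 (adjusted p = 0.0629 to 0.0839).

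The balance between the sides did not show a difference over S3 to S5 together. The higher side held 45.0% ± 0.032 of local contacts in G1 (SD, n = 2) and 45.5% ± 1.77 in S3 to S5 (SD, n = 6, from 43.2 to 48.0%). The difference of 0.483 percentage points had p = 0.75 in a two-sided exact permutation test whose smallest p is 0.0357. By fraction, S3 stood at 45.2%, S4 at 47.4% and S5 at 43.8%. Both S4 libraries (46.7 and 48.0%) lay above both G1 libraries (45.01 and 44.96%), and both S5 libraries (43.2 and 44.5%) lay below them. The test over S3 to S5 averages these opposite moves, so it cannot show a change of a single fraction.

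**Figure D2:**
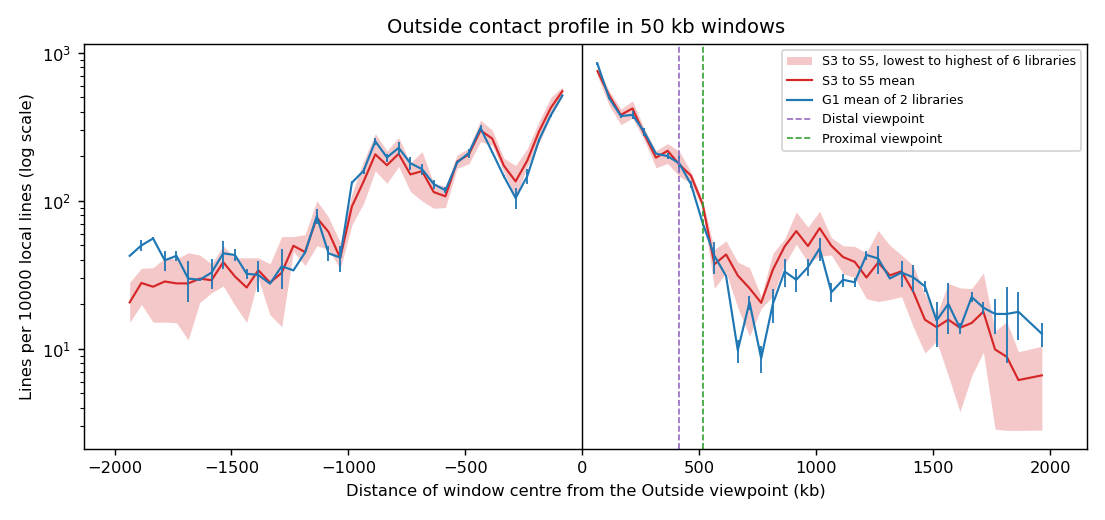
Contacts per 10000 local contacts (y axis, log scale) in 50 kb windows by distance from the Outside viewpoint (x axis, kb), with the G1 mean and range of 2 libraries in blue and the S3 to S5 mean and range of 6 libraries in red; dashed lines mark the Distal and Proximal viewpoints. The red curve stands above the blue one at 664.9 kb (31.3 against 9.78), 914.9 kb (62.5 against 29.3) and 1064.9 kb (49.8 against 24.2), and below it at the far lower end.

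The local zone was then read in 50 kb windows. Of 77 windows wholly inside it, 76 had a mean of at least 10 contacts per library and were tested. The window left out, at 113000001 to 113050000, held 3 to 22 contacts. Window values are given as contacts per 10000 local contacts unless stated otherwise, and log2 changes carry a pseudocount, so they understate the change of low windows. On both sides the highest G1 level was in the nearest window. The window at 111150001 to 111200000 held 844 in G1 and 699 to 805 in mid S (log2 -0.17, adjusted p = 0.0778), and the one at 111000001 to 111050000 held 515 in G1 and 552 in mid S (log2 0.10, adjusted p = 0.387).

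In local scaling 6 of 76 windows (7.89%) passed, 3 higher (3.95%) and 3 lower (3.95%), and 21 had an unadjusted p under 0.05. All 3 gains lay on the higher side, past the Proximal viewpoint, and all 3 losses on the lower side. Groups did not overlap in 18 of 76 windows (23.7%). Over the windows of the lower side the median log2 change was -0.10, with 12 of 38 positive, and over those of the higher side it was 0.004, with 19 of 38 positive.

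The window with the largest gain, at 111750001 to 111800000 and 664.9 kb from the viewpoint, held 11.5 and 8.0 in the G1 libraries, which are 10 and 7 contacts. It held 33.8 and 32.3 in S3, 38.5 and 38.6 in S4 and 25.8 and 18.9 in S5. All 6 mid S libraries lay above both G1 libraries, with S4 highest and S5 lowest. The means were 9.78 ± 2.48 (SD, n = 2) and 31.3 ± 7.67 (SD, n = 6), a fold of 3.20 and a log2 change of 1.42 (SE 0.32, adjusted p = 0.000348). Its 199 mid S contacts came from 124 distinct positions, counted within libraries, and the most frequent position gave 4.17% of the window's contacts. Without G1 replicate 2 the log2 change was 1.22 and the call was lost (adjusted p = 0.116).

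The window at 112000001 to 112050000, 914.9 kb away, held 24.2 and 34.4 in G1. It held 54.4 and 55.1 in S3, 70.4 and 50.8 in S4 and 60.3 and 84.3 in S5. Again no mid S library reached down to the G1 values, but the order among fractions differed from that of the former window, with both S3 libraries close together and 1 S5 library highest. The fold was 2.13 and the log2 change 1.02 (SE 0.23, adjusted p = 0.000348). Without G1 replicate 1 it was 0.79 (adjusted p = 0.094).

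The third gain, at 112150001 to 112200000 and 1064.9 kb away, was the most even. It held 27.7 and 20.6 in G1, 49.7 and 50.3 in S3, 43.2 and 56.5 in S4 and 51.7 and 47.4 in S5. The fold was 2.06 and the log2 change 0.97 (SE 0.25, adjusted p = 0.00233), with fraction values against G1 of 0.98, 0.97 and 0.97. Without G1 replicate 2 it was 0.78 (adjusted p = 0.168).

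The 3 losses were at long distance on the lower side. The window at 109250001 to 109300000, 1835.1 kb away, held 54.2 and 57.3 in G1 and 15.2 to 35.4 in mid S with a median of 27.7, a fold of 0.472 (log2 -1.05, SE 0.27, adjusted p = 0.00234). The window at 109150001 to 109200000, 1935.1 kb away, held 42.7 and 42.4 in G1 and 15.1 to 28.1 in mid S with a median of 19.1, a fold of 0.485 (log2 -0.98, SE 0.29, adjusted p = 0.0137). The window at 110100001 to 110150000, 985.1 kb away, held 130 and 135 in G1 and 68.7 to 112 in mid S with a median of 91.5, a fold of 0.690 (log2 -0.54, SE 0.17, adjusted p = 0.0247). Every mid S library lay below both G1 libraries in all 3. In whole-library scaling the window at 110100001 did not pass (log2 -0.26, adjusted p = 0.283). None of the 3 passed without G1 replicate 1 (adjusted p = 0.0937 to 0.105) or without G1 replicate 2 (adjusted p = 0.13 to 0.22). The window at 110100001 did not pass without S3 replicate 2 (adjusted p = 0.0737) or S4 replicate 2 (adjusted p = 0.0571), and that at 109150001 did not pass without S3 replicate 2 (adjusted p = 0.0607). In all, 2 windows were called without G1 replicate 1, 1 without G1 replicate 2 and 14 without S5 replicate 2.

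**Figure D3:**
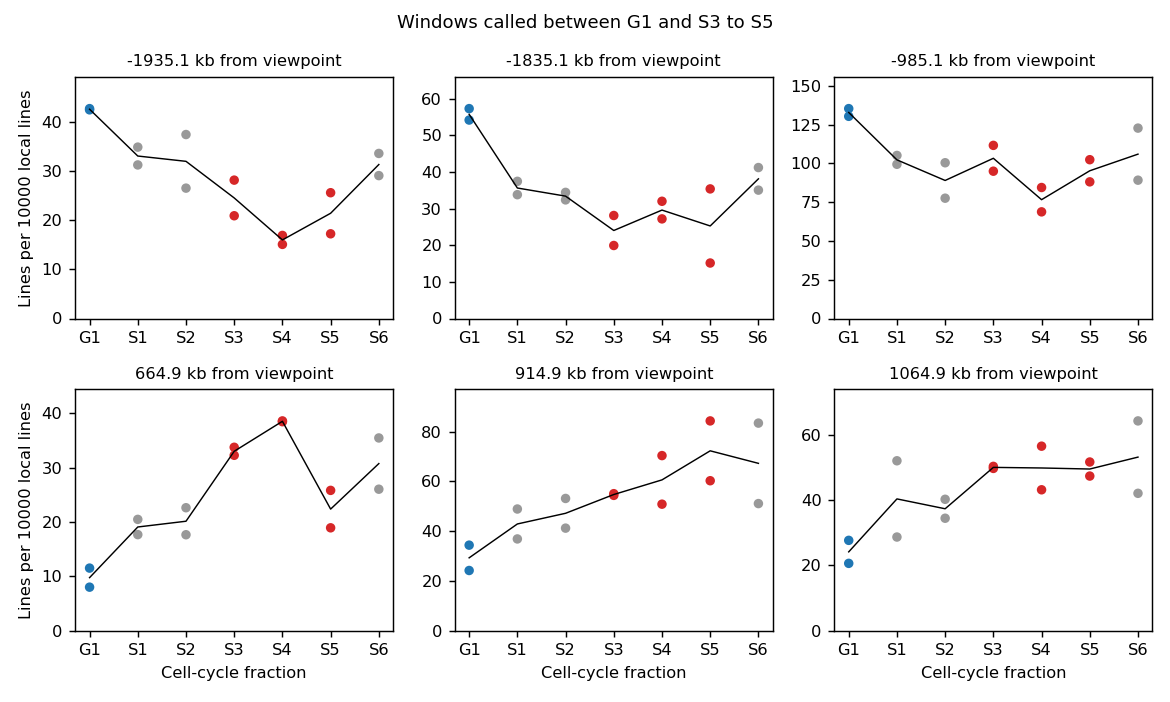
Contacts per 10000 local contacts (y axis, from 0) in the 6 windows called between G1 and S3 to S5, by cell-cycle fraction (x axis), with 1 point per library and a line through the fraction means. In each window the 6 red points of S3 to S5 lie on 1 side of the 2 blue points of G1, above them in the 3 windows at 664.9, 914.9 and 1064.9 kb and below them in the other 3.

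The windows that hold the other viewpoints were followed whatever their values. The window of the Proximal viewpoint, at 111600001 to 111650000, held 68.0 and 73.4 in G1 and 87.3 to 100.4 in mid S with a median of 94.7. The groups did not overlap there, and the local log2 change of 0.41 did not pass (adjusted p = 0.111), while the whole-library change of 0.68 did (SE 0.18, adjusted p = 0.00167). The window of the Distal viewpoint, at 111500001 to 111550000, held a mean of 179.3 in G1 and 176 in mid S and passed in neither scaling (local log2 -0.03, adjusted p = 0.938; whole library 0.25, adjusted p = 0.14). On the lower side the largest local gain was at 109850001 to 109900000, with 33.4 and 34.4 in G1 and 45.5 to 57.4 in mid S (log2 0.51, adjusted p = 0.111). On the higher side the largest local loss was at 112950001 to 113000000, with 11.5 and 24.1 in G1 and 2.81 to 9.57 in mid S (log2 -1.17, adjusted p = 0.0694). Neither passed the test in local scaling, though groups did not overlap in either.

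**Figure D4:**
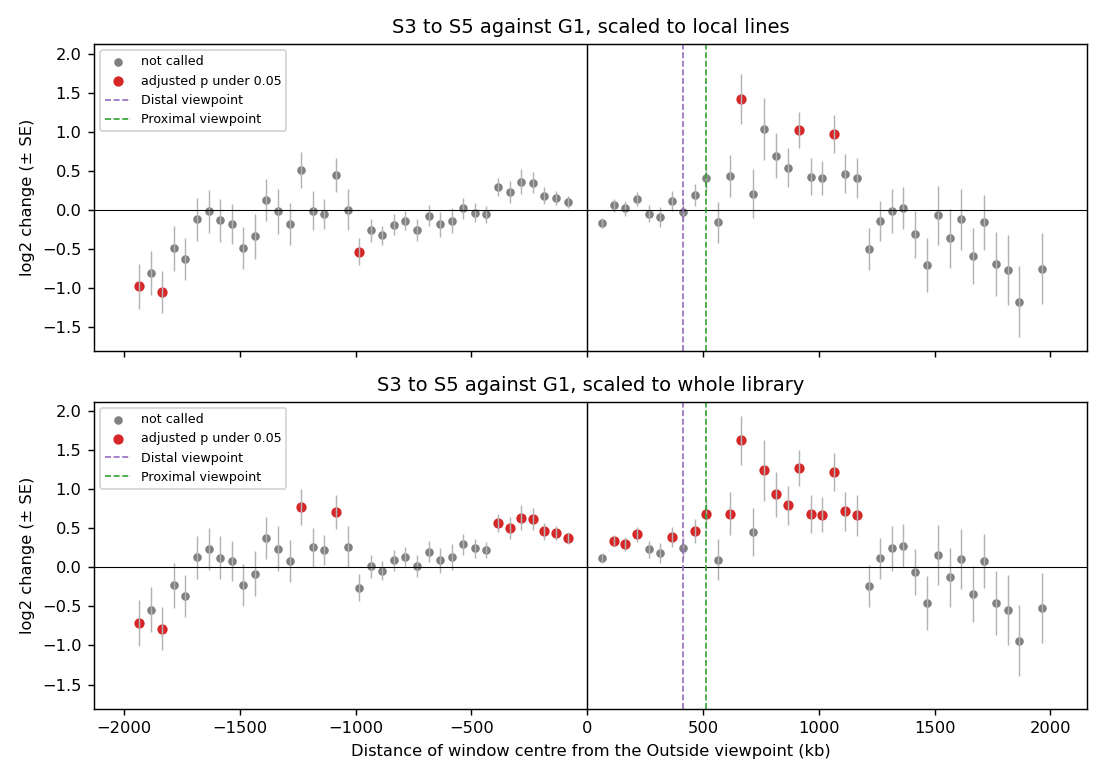
Log2 change from G1 to S3 to S5 with its SE (y axis) for each 50 kb window by distance from the Outside viewpoint (x axis, kb), scaled to local contacts in the upper panel and to the whole library in the lower one; red points have an adjusted p under 0.05. The upper panel has 6 red points and the lower one 28, of which 26 are above 0.

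Scaled to the whole library, 28 of the same 76 windows (36.8%) passed, 26 higher (34.2%) and 2 lower (2.63%). The median log2 change over all windows was 0.23 in this scaling and -0.05 in local scaling, a shift set by the larger local share of mid S libraries. The largest block of gain ran from 111850001 to 112300000 on the higher side. All 9 of its windows passed, with folds of 1.67 to 2.89, the highest at 111850001, and the lowest adjusted p was again at 112000001 (log2 1.28, SE 0.23, adjusted p = 2.79e-06). The highest fold had a low base, as 111850001 held 9 and 6 contacts in the G1 libraries and 20 to 24 in mid S. Of the 9 windows in this block 2 passed in local scaling, where log2 changes ran from 0.41 to 1.04. A second block of 2 windows, from 111700001 to 111800000, held the window at 111750001 with a fold of 3.90 (log2 1.63, SE 0.32, adjusted p = 1.26e-05).

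Nearer to the viewpoint gains were smaller and lay on both sides. On the lower side 7 windows from 110700001 to 111050000 passed, with folds from 1.30 at 111000001 to 1.58 at 110800001, where the log2 change was 0.64 (SE 0.16, adjusted p = 0.000404). At 110700001 it was 0.57 (SE 0.12, adjusted p = 1.5e-05). On the higher side 3 windows from 111200001 to 111350000, the window at 111450001 and 2 windows from 111550001 to 111650000 passed, with largest log2 changes of 0.42, 0.39 and 0.68. Farther out on the lower side, single windows passed at 109850001 with a fold of 1.79 (log2 0.77, adjusted p = 0.00504) and at 110000001 with a fold of 1.70 (log2 0.71, adjusted p = 0.00593). The 2 windows lower in mid S were those at 109250001 and 109150001, with folds of 0.574 and 0.590, and both calls were lost when either G1 library was left out (adjusted p = 0.0894 to 0.218). They were also lost in turn without 1 S library, at 109150001 without S3 replicate 2 (adjusted p = 0.102), S4 replicate 2 (adjusted p = 0.0537) or S5 replicate 1 (adjusted p = 0.0786), and at 109250001 without S5 replicate 2 (adjusted p = 0.0661). Without G1 replicate 2 the whole count was 13, with the calls at 109850001 (adjusted p = 0.0541), 110000001 (adjusted p = 0.182) and 111450001 (adjusted p = 0.182) among those lost. The call at 109850001 was lost without G1 replicate 1 too (adjusted p = 0.0566).

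The 3 mid S fractions were not alike everywhere. Asked after the values had been seen, an F test among S3, S4 and S5 passed in 2 of 76 windows (2.63%, 16 at an unadjusted p under 0.05), in 3 of 13 stretches of the whole library (23.1%) and in 3 of 9 local stretches (33.3%). The window at 110200001 to 110250000 held 161 and 159 in S3, 202 and 173 in S4 and 257 and 285 in S5 (adjusted p = 0.000105). S5 was above both other fractions there. The window at 110400001 to 110450000 held 168.8 and 155.7 in S3, 143.5 and 99.8 in S4 and 215 and 170.5 in S5 (adjusted p = 0.0121).

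The same 3 stretches passed in both scalings. As percent of the library, the stretch from Proximal to 800 kb held 0.914% in S3, 1.31% in S4 and 1.09% in S5 (adjusted p = 0.0414), so that S4 was highest. The stretch from 1200 to 2000 kb on the higher side held 1.52, 1.71 and 2.23% (adjusted p = 0.0277), and that from 500 to 1000 kb on the lower side 9.58, 9.03 and 11.6% (adjusted p = 0.0233). S5 was highest in both. The whole-library count was 0 without S4 replicate 2 or either S5 library and 1 without S3 replicate 2. The local count was 0 without S5 replicate 1, 1 without S3 replicate 2 and 5 without either S6 library. The window count was 1 without S4 replicate 2, S5 replicate 1 or S6 replicate 1 and 6 without S1 replicate 1 or S5 replicate 2.

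Late S phase was compared with the mid S libraries to see whether the profile held. The 3 gained windows did not differ detectably in S6, with log2 differences from S3 to S5 of -0.003 at 111750001 (95% confidence interval -0.63 to 0.62), 0.08 at 112000001 (-0.36 to 0.53) and 0.07 at 112150001 (-0.42 to 0.55). Those intervals are wide. Of 76 windows 6 (7.89%) passed, 5 higher in S6 (6.58%) and 1 lower (1.32%), and 17 had an unadjusted p under 0.05. The higher ones included 3 adjacent windows from 110150001 to 110300000 on the lower side. At 110250001 the level was 174 ± 31.8 in S3 to S5 and 246 ± 36.0 in S6 (log2 0.50, SE 0.13, adjusted p = 0.00939), with a G1 mean of 197. Windows at 109400001 (27.7 and 47.5) and 109500001 (29.1 and 52.4) were the other 2 (log2 0.80, adjusted p = 0.0491 each), and the window at 111300001 was lower in S6, with 422 ± 42.6 and 339 ± 13.3 (log2 -0.31, adjusted p = 0.0344). This count moved with single libraries. It was 0 without S3 replicate 2, 1 without either G1 library, S4 replicate 2 or either S6 library, 2 without S2 replicate 2, S3 replicate 1 or S5 replicate 1, and 3 without S2 replicate 1.

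**Figure D5:**
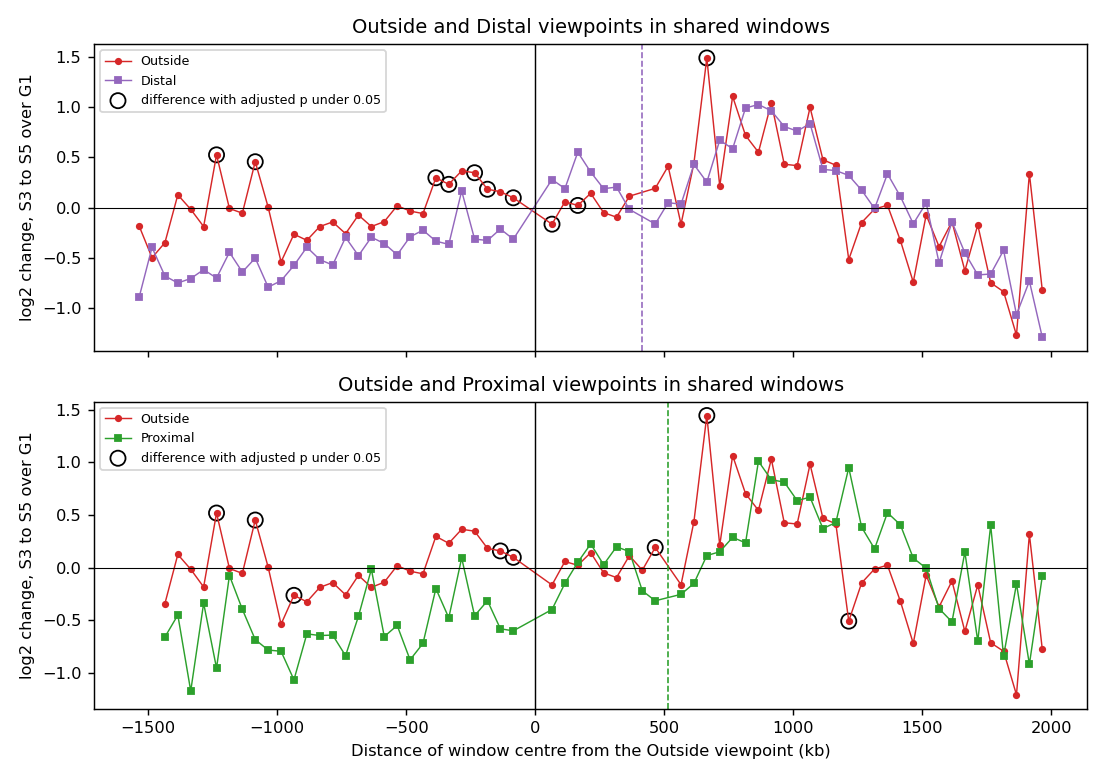
Log2 change from G1 to S3 to S5 (y axis) in windows shared by 2 viewpoints, by distance from the Outside viewpoint (x axis, kb), with Outside in red against Distal (purple, upper panel) and Proximal (green, lower panel); rings mark windows where the difference had an adjusted p under 0.05. Rings on Outside stand at 664.9 kb in both panels, with Outside above the other viewpoint.

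Whether the fountain viewpoints changed by the same amounts was tested in shared windows, with each library scaled to its own local contacts. The change of Outside differed from that of Distal in 10 of 68 windows (14.7%), higher in 8 (11.8%) and lower in 2 (2.94%), and from that of Proximal in 8 of 66 (12.1%), higher in 7 (10.6%) and lower in 1 (1.52%). The 2 comparisons share the Outside libraries. The gain at 111750001 differed from both. There Outside went from 9.78 to 31.3, Distal from 76.0 to 92.7 and Proximal from 277 to 298 contacts per 10000 local contacts. The Outside log2 change was larger by 1.24 than that of Distal (95% confidence interval 0.60 to 1.88, adjusted p = 0.00684) and by 1.33 than that of Proximal (0.76 to 1.90, adjusted p = 0.00152). The first of these was lost without Outside G1 replicate 2 (adjusted p = 0.107). The Outside G1 base in this window was 10 and 7 contacts, so a small rise in level gives a large log2 change. The flanking windows at 111700001 and 111800001 had no called difference, with 0.01 and -0.46 against Distal and 0.59 and 0.06 against Proximal.

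The other 2 gained windows did not differ detectably between viewpoints. At 112000001 the Distal level went from 113 to 224, and the log2 difference between Outside and Distal was 0.08 (95% confidence interval -0.40 to 0.56, adjusted p = 0.845). At 112150001 Distal went from 117 to 210, with a difference of 0.16 (-0.34 to 0.66, adjusted p = 0.67). Against Proximal the differences were 0.20 (-0.31 to 0.71, adjusted p = 0.595) and 0.31 (-0.24 to 0.86, adjusted p = 0.419).

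Across the shared windows of the lower side the Outside change was above that of Distal in all but 109600001 (-0.10). It was above that of Proximal in all but 110450001 (-0.17). The called windows there are thus part of a difference along the whole side in local scaling. Each library was scaled to its own local total, so a gain elsewhere lowers its shares on this side. At 112000001 Distal went from 113 to 224 and Proximal from 261 to 468. How much of the difference comes from this scaling was not tested. Fewer windows were called with whole-library scaling, as given in the last section. At 109850001 the log2 difference was 1.23 against Distal (adjusted p = 0.00175) and 1.47 against Proximal (adjusted p = 0.0231). Outside held 33.9 in G1 and 49.8 in mid S there, and Distal 101 and 61.2. The difference against Proximal was lost without either Outside G1 library (adjusted p = 0.103 and 0.112) and without Proximal G1 replicate 2 (adjusted p = 0.0882). On the higher side, past the block of gain, the window at 112300001 to 112350000 went the other way. Outside held 43.1 in G1 and 30.4 in mid S and Proximal 66.2 and 129, a log2 difference of -1.46 (adjusted p = 0.00304). At 111250001, centred 164.9 kb from the Outside viewpoint towards Distal, Outside held 375 and 381 and Distal 215 and 316, a difference of -0.53 (adjusted p = 0.00684) that was lost without Distal G1 replicate 1 (adjusted p = 0.191). The count against Distal was 2 without Outside G1 replicate 2, 4 without Distal G1 replicate 1, 5 without Distal G1 replicate 2, Outside G1 replicate 1 or Outside S4 replicate 1, and 6 without Distal S4 replicate 1, Distal S5 replicate 1 or Outside S3 replicate 2. The count against Proximal was 2 without Outside G1 replicate 2, 4 without Outside G1 replicate 1, and 5 without Outside S4 replicate 1 or Proximal S5 replicate 1.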

How the data were processed

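Per the labels' protocols, sonicated DNA was copied in 1 round from a biotinylated primer, and the adapter joined to it carried random molecular barcodes. Cutadapt, bedtools and hg19 are named per the submitters' processing notes. The aligner is not given in the sources used here, and neither is the use of the barcodes. The authors deposited 1 position per line, with no other value, count, score or signal, and every library holds 16350 lines. Repeated positions were kept.

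Lines were counted in 50 kb windows over 20 kb and within 2 Mb of the viewpoint, with a mean of at least 10 lines. Counts were scaled to local or to all lines, and log2(value + pseudocount) was tested, the pseudocount being the smallest non-zero scaled value (2.83 lines in local scaling, 3 in the whole library). Models used limma 3.58.1 (lmFit, eBayes with a trend for windows and none for stretches) in R 4.3.3 with the data.table package (version 1.17.8), on all 14 Outside libraries in 7 fractions. Differences between viewpoints used 28 libraries in 1 model. Benjamini-Hochberg adjusted p-values under 0.05 were called. Single shares had exact permutation tests. Simulated data with known changes were used to test the model of windows. Figures used Python 3.11.15 and matplotlib 3.10.9.

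Named windows were those called with the same sign in both replicates, merged when adjacent, plus both other viewpoints and the extremes of each side. Windows chosen after their values were seen are the 2 that differed among S3, S4 and S5 and that at 110800001. Those at 109600001, 110450001 and 111800001, given for context, were also chosen in that way. The libraries, stretches and tests were chosen with earlier results of these data known. Alternatives covered scaling, windows, filters, the pseudocount, the model, repeats, a replicate block and leaving out each library.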

Additional observations from a re-analysis of the deposited data

Results flagged for a closer look

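The results below stand out because the change from G1 to S3 to S5 differed between the Outside viewpoint and a fountain viewpoint in a test of the difference itself. Values are log2 differences in local scaling, from limma. Against Distal, the Outside change was higher by 1.24 at 111750001, 1.23 at 109850001, 0.96 at 110000001, 0.66 at 110850001, 0.63 at 110700001 and 0.41 at 111000001. It was lower at 111250001 (-0.53) and at 111150001 (-0.44). Against Proximal, it was higher by 1.33 at 111750001, 1.47 at 109850001, 1.14 at 110000001, 0.80 at 110150001, 0.74 at 110950001 and 0.51 at 111550001, and lower at 112300001 (-1.46). A higher difference is not always a gain of Outside. Outside itself had a called local gain at 111750001. Its log2 changes at 109850001 (0.51, adjusted p = 0.111) and 110000001 (0.45, adjusted p = 0.145) did not pass. Also without a local call, its means per 10000 local contacts were higher in mid S at 110700001 (214 and 264), 110850001 (147 and 187) and 111550001 (129 and 148). At 110150001 the Outside mean went from 160 to 135 contacts per 10000 local contacts without a call, and that of Proximal from 170 to 81.1. At 110950001 the log2 change of Outside was 0.16 and that of Proximal -0.58. At 111000001 that of Outside was 0.10 and that of Distal -0.31. In 38 planned settings and 1 added later, the calls that held throughout were those at 109850001 against Distal and at 111750001 and 112300001 against Proximal. Among the stretches and named windows examined in the 6 mid S libraries, no library stood apart by Dixon's test.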

How the results depend on the processing

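The 28 whole-library windows stayed within 1.5 times in 13 of 13 settings other than leaving out a library (13 to 28 then), and the 9 whole-library stretches in 5 of 6 (8 to 9). The 6 local windows became 12 with the replicate number as a block, 10 with distinct positions, 13 with 100 kb windows and 10 with no trend, and 1 to 14 without 1 library. The exact permutation test left 0 stretches in either scaling, and a zone of 1 Mb left 4 of 7 local ones (2 to 7 without 1 library). The side difference ranged from -0.0276 to 0.947 points. Outside against Distal fell from 10 to 2 with 25 kb windows, 5 with no trend, 4 with a quasi-Poisson model and 6 with whole-library scaling (2 to 11 without 1 library). Outside against Proximal fell from 8 to 5 with distinct positions, 3 with no trend, 2 with median-ratio scaling and 2 with whole-library scaling (2 to 10). S6 against S3 to S5 went from 6 to 12 with the block, 3 with distinct positions, 2 with 50 kb left out, 11 with only the groups compared, 0 with 25 kb windows, 14 with 100 kb windows, 1 with the grid moved, 2 with no trend, 13 with quasi-Poisson and 3 with whole-library scaling (0 to 6). Differences among S3, S4 and S5 became 9 windows, 8 whole-library and 7 local stretches with the block, and 5 local stretches with distinct positions or 50 kb left out (1 to 6, 0 to 4 and 0 to 5 without 1 library). Whole-library scaling of the viewpoint and S6 tests, and all tests among S3, S4 and S5, were added after seeing the data. Among single named windows and stretches, 1427 values kept their side of the threshold, 203 lost and 11 gained a call, and 0 reversed. The cause of these changes was not tested. The mark set for pairing by replicate number was a correlation over 0.1 in every pair of fractions. Window deviations correlated at -0.304 to 0.354 and passed it in 10 of 21 pairs, so the main tests held no replicate block. As 1 low pair is enough to fail this mark, it cannot exclude pairing. Some stretches nevertheless differed one way by number. Replicate 1 was higher from 500 to 1000 kb on the lower side, and lower from 20 kb to Distal, in 7 of 7 fractions, and lower within 20 kb in the 6 S fractions. With 2 G1 libraries and windows holding as few as 3 contacts, small changes were beyond detection.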
